A study of Homo sapiens with 12 samples.

Results

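The genes described here are 10 members of the LIN28 and let-7 pathway, chosen by symbol from a table of 59050 genes: LIN28A, LIN28B and TRIM71, the microRNA-processing enzymes DROSHA and DICER1, and the let-7 target genes HMGA1, HMGA2, IGF2BP1, IGF2BP2 and IGF2BP3. Each symbol had a row in the table, and each gene had enough counts to be tested in both assays. They were followed from HUES8, an established line of human embryonic stem cells, into its neural derivatives. Neural progenitor cells (NPC) had received 7 days of neural induction with SB431542 (2.5 uM, which blocks activin and Nodal receptors) together with LDN193189 (0.05 uM, which blocks BMP receptors), and SB431542 was omitted on the last 2 of these days. Embryonic stem cells (ESC) were kept in mTeSR1 medium, and both states are wild type and come from this 1 line. Each state was measured by sequencing rRNA-depleted total RNA and, separately, RNA bound to ribosomes, in 3 libraries each, which makes 12 libraries. The labels do not say whether the 3 libraries of a group came from separate cultures, so p-values measure the spread between these libraries, which may be technical.

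LIN28A and LIN28B are RNA-binding proteins of stem cells that bind precursors of the let-7 microRNAs and keep them from maturing, in part by recruiting the uridylyl transferases TUT4 and TUT7, after which the nuclease DIS3L2 degrades the tailed precursor. Mature let-7, made by DROSHA in the nucleus and DICER1 in the cytoplasm and loaded into Argonaute proteins, represses mRNAs that carry matching sites, among them LIN28A and LIN28B themselves, TRIM71, HMGA2 and IGF2BP1 to IGF2BP3. Let-7 is known to mature as embryonic cells differentiate, and LIN28A also binds many mRNAs directly and affects their translation.

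The let-7 sequences are shown first because the shared seed defines the family's targets and the GGAG element in the precursor is a known contact of LIN28. All 12 human let-7 family hairpins in RefSeq (GRCh38.p14) give a 5p arm with the seed GAGGUAG at bases 2 to 8, and the 12 genes encode 9 distinct 5p sequences. The 9 differ from each other only outside the seed, which stands in capitals:
let-7a-5p: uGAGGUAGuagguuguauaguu
let-7b-5p: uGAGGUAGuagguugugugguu
let-7c-5p: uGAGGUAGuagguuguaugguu
let-7d-5p: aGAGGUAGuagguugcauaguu
let-7e-5p: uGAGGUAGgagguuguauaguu
let-7f-5p: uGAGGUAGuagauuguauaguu
let-7g-5p: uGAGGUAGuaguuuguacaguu
let-7i-5p: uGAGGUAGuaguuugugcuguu
miR-98-5p: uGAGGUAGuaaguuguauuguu

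A search for GGAG between the 5p and the 3p arm found it in 8 of the 11 let-7 family hairpins for which both arms are listed, and not in let-7a-3, let-7b or miR-98. Among all 739 human hairpins with both arms listed, 60 (8.12%) hold these letters between the arms. A match describes the letters in this window on the precursor strand, and is not a measured contact. The hairpins of let-7g, which holds GGAG (capitals), and of miR-98, which does not, are given because both had counts in these libraries:
let-7g: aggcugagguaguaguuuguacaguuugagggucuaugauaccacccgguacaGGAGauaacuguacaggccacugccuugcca
miR-98: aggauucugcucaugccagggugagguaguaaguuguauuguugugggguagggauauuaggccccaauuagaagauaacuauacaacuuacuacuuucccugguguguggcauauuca
Let-7g lies at chr3:52268278-52268361 on the minus strand inside the gene WDR82, and miR-98 at chrX:53556223-53556341 on the minus strand inside HUWE1 (GRCh38.p14).

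Libraries of total RNA held 19529738 to 35117370 counts and those of ribosome-bound RNA 2422756 to 4451196. Expression is given as CPM, the share of a library's counts scaled by TMM between the libraries of an assay to a common size. In each assay 1 library stood somewhat apart within its group: ESC replicate 3 of total RNA correlated with the other 2, over the genes tested, at r = 0.980 and 0.976 (other pairs of total RNA libraries, 0.996 to 0.997), and ESC replicate 2 of ribosome-bound RNA at 0.927 and 0.940 (other pairs, 0.975 to 0.979). For the 10 pathway genes, values without them are given where a call depends on them, and for some where the size of a called change does. Markers stood as the labels say: 4 neural progenitor genes (PAX6, SOX1, OTX2, LHX2) summed to 177 to 185 CPM of total RNA in NPC and 11.6 to 13.6 in ESC, and 4 stem cell genes (POU5F1, NANOG, TDGF1, DNMT3B) to 425 to 443 in NPC and 4600 to 5730 in ESC. Of the 4 stem cell genes DNMT3B made up most of the NPC sum, at 407 ± 9.20 CPM (SD, n = 3), and NANOG averaged 1.23 ± 0.0906 CPM there. On ribosomes the states stood less far apart. The progenitor genes summed to 123 to 148 CPM in NPC and 50.8 to 57.1 in ESC. Stem cell genes summed to 324 to 376 in NPC and 749 to 1730 in ESC. OTX2 averaged 49.6 CPM of ribosome-bound RNA in ESC, beside 8.68 of total RNA. In total RNA, sums of 4 neuron genes were 10.8 to 12.4 in NPC and 18.1 to 21.2 in ESC, of 4 neural crest genes 42.6 to 43.9 in NPC and 44.1 to 44.9 in ESC, and of 4 mesenchymal genes 222 to 236 in NPC and 226 to 300 in ESC. The mesoderm and endoderm genes (TBXT, MIXL1, EOMES, SOX17) summed to 0.279 to 0.326 CPM of total RNA in NPC and 10 to 10.9 in ESC, and to 1.39 to 3.85 CPM of ribosome-bound RNA in NPC and 228 to 270 in ESC. No marker of these 6 lists was at 0 throughout a group. The part of other cell types in the results below was not tested.

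Of the 10 pathway genes, 1 was higher and 5 were lower in NPC than in ESC in total RNA (edgeR quasi-likelihood test, adjusted p under 0.05), while 52.6% of all 18631 genes tested were called (26.4% higher, 26.2% lower). In ribosome-bound RNA 5 were higher and 2 lower, against 61.8% of 12250 genes called (31.6% higher, 30.3% lower). In translational efficiency (how far ribosome-bound RNA changed beyond total RNA, tested as the interaction of assay and state) 5 were higher and 0 lower, against 41.9% of 11866 genes called (22.9% higher, 19.0% lower). The total share of members called was thus near that of all genes in each readout. edgeR found 0 members lower in efficiency at an unadjusted p under 0.05 as well, but LIN28A was just above it (edgeR p 0.0505). With RLE size factors or total counts as the scale, edgeR had 6 members under 0.05 unadjusted in place of 5. At an adjusted p under 0.05 limma-voom called 0 lower and DESeq2 called 1, LIN28A. Median log2 fold changes of the 10 genes, beside those of all genes tested, were -0.39 and 0.03 for total RNA, 0.65 and -0.01 for ribosome-bound RNA, and 0.91 and -0.05 for efficiency. HMGA2, DICER1 and DROSHA were lower in total RNA and higher in ribosome-bound RNA at once, a combination found in 390 of 11866 genes (3.29%). For HMGA2 and DICER1 the total RNA call was lost without any 1 NPC library or with total counts as the scale. That of DROSHA held in all 13 alternatives. In bulk libraries fewer cells of a type and less RNA per cell cannot be told apart.

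**Figure D1:**
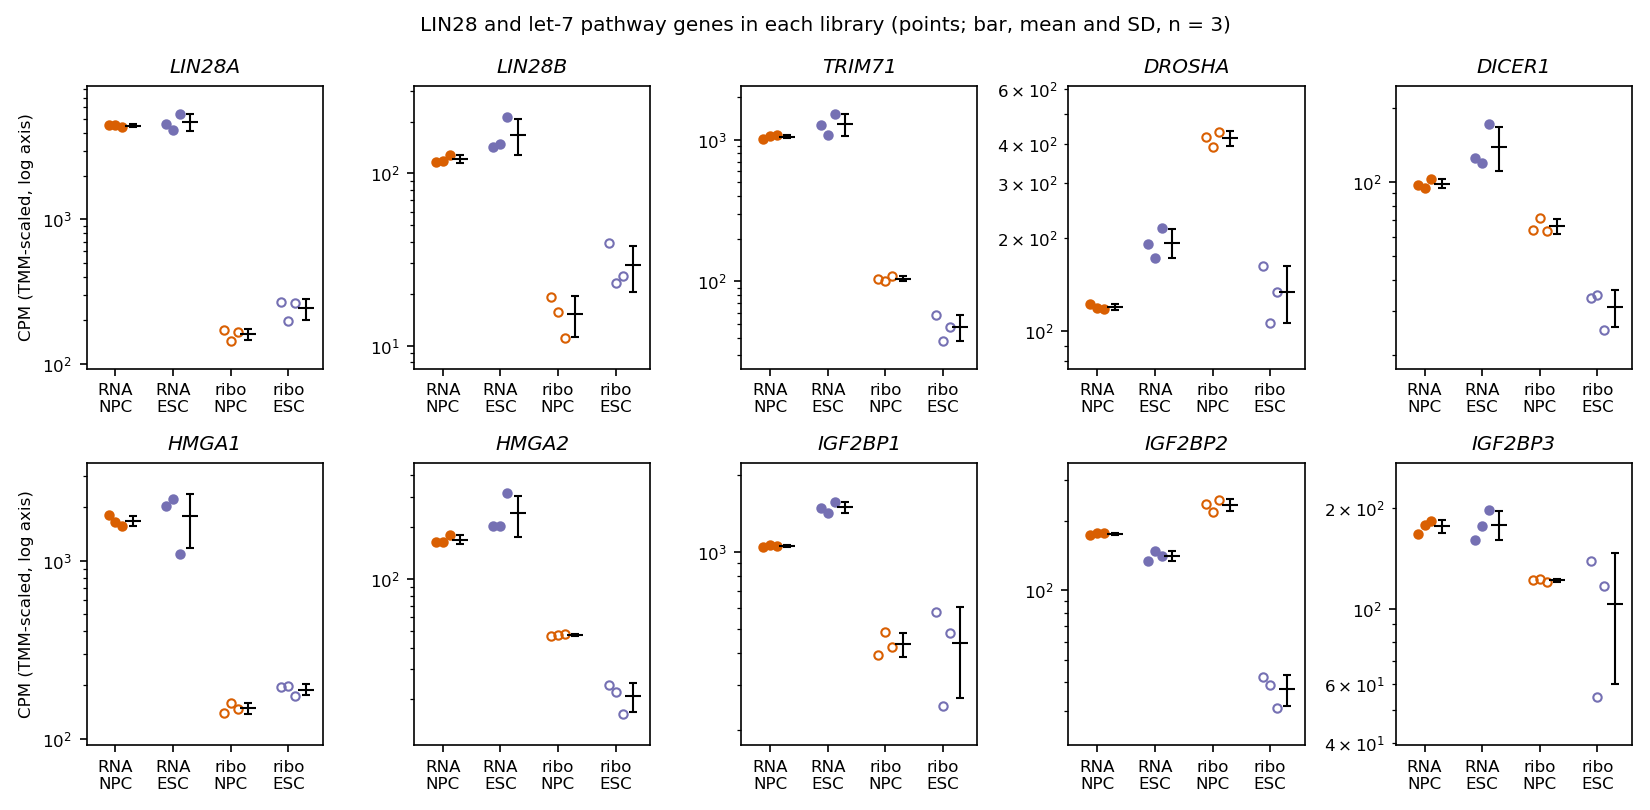
Levels of the 10 pathway genes in each library, in TMM-scaled CPM on log axes that differ between genes, for total RNA (filled) and ribosome-bound RNA (open) of NPC (orange) and ESC (purple). Points are libraries and bars the mean and SD of 3; ribosome-bound DROSHA, DICER1, HMGA2, IGF2BP2 and TRIM71 stood higher in NPC than in ESC in each library.

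LIN28A, the stem cell form that acts mainly in the cytoplasm, was lower in ribosome-bound RNA in NPC, while its total RNA differed by less than the spread between libraries. In total RNA it had 4546, 4484 and 4376 CPM in the 3 NPC libraries, and 4575, 4181 and 5404 CPM in the 3 ESC libraries. NPC values lay within the range of ESC, and the 95% interval of the log2 fold change ran from -0.32 to 0.16 around -0.08. In ribosome-bound RNA it had 170, 144 and 166 CPM in NPC libraries 1 to 3, against 267, 196 and 263 CPM in ESC. Here each NPC library lay below each ESC library. The log2 fold change was -0.60 ± 0.20 (SE, n = 3 per state), with an adjusted p of 0.0214 by edgeR. That call depended on the libraries: it was lost when any 1 of the ribosome-bound libraries other than ESC replicate 2 was left out, with adjusted p between 0.0601 and 0.112 and log2 fold changes between -0.63 and -0.52. Its efficiency changed by -0.57 ± 0.27 on the log2 scale, past no threshold (edgeR adjusted p 0.0998). Without ESC replicate 3 of total RNA this was -0.71 (adjusted p 0.0292), without ESC replicate 2 of ribosome-bound RNA -0.70 (0.0106) and without both -0.84 (3.37e-05), all by edgeR.

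LIN28B, the paralog that also acts in the nucleus, was lower in NPC in both assays. Its total RNA was 117, 118 and 128 CPM in NPC and 142, 148 and 213 CPM in ESC, a log2 fold change of -0.47 ± 0.16 (edgeR adjusted p 0.0379). Its ribosome-bound RNA was 19.2, 15.6 and 11.1 CPM in NPC and 39.3, 23.2 and 25.2 CPM in ESC, a log2 fold change of -0.95 ± 0.28 (edgeR adjusted p 0.0114). NPC and ESC did not overlap in either assay. The ribosome-bound values rest on 49 to 126 counts per library, the fewest of the 10 genes together with HMGA2. Without ESC replicate 3 the total RNA difference was smaller but held its call (-0.26, adjusted p 0.000348). Without any 1 of the NPC libraries that call was lost at log2 fold changes of -0.51 to -0.45 (edgeR adjusted p 0.0775 to 0.122), and the ribosome-bound call was lost without ESC replicate 1 (-0.68, adjusted p 0.0548) or NPC replicate 3 (-0.73, 0.0716). Efficiency changed by -0.52 ± 0.34, which did not pass (edgeR adjusted p 0.230), and by -0.78 (adjusted p 0.0409) without ESC replicate 3 of total RNA, the library in which LIN28B total RNA was highest. Without that library and ESC replicate 2 of ribosome-bound RNA it was -0.91 (adjusted p 0.000764).

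The antisense gene LIN28B-AS1 went the other way, with 274 counts of total RNA summed over NPC and 82 over ESC and a log2 fold change of 1.16 ± 0.19 (edgeR adjusted p 0.00146). Its span (chr6:104936294-104940527) shares 3502 bases with that of LIN28B (chr6:104937026-105083332), and the sources used here do not state whether the counting used strand, so reads in the shared stretch cannot be told apart. Its counts equalled 1.59% of those of LIN28B in total RNA and 9.34% in ribosome-bound RNA. The pseudogenes LIN28AP1 and LIN28AP2 held 1 and 0 counts in all 12 libraries together.

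TRIM71 (LIN41), a ubiquitin ligase and mRNA repressor of stem cells whose transcript is a classical let-7 target, was higher on ribosomes in NPC, while its total RNA did not pass the threshold. Its total RNA was 1016, 1057 and 1076 CPM in NPC libraries and 1258, 1084 and 1528 CPM in ESC libraries. The groups came close without overlap, and the log2 fold change of -0.30 ± 0.13 did not pass (edgeR adjusted p 0.0810). It passed without ESC replicate 2 (-0.44, adjusted p 0.0166) or ESC replicate 3 (-0.16, 0.0278). Ribosome-bound TRIM71 was 103, 101 and 109 CPM in NPC and 57.5, 37.9 and 47.7 CPM in ESC. Every NPC library lay above every ESC library, by 2.18-fold in the fit (log2 1.13 ± 0.20, edgeR adjusted p 0.000498). Efficiency rose by 1.38 ± 0.27 on the log2 scale (edgeR adjusted p 0.000824).

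DROSHA, the nuclear enzyme that cuts primary microRNA transcripts, was lower in total RNA and higher on ribosomes in NPC. Its total RNA was 122, 119 and 118 CPM in NPC and 191, 172 and 214 CPM in ESC, a fall of 0.69 ± 0.11 on the log2 scale (edgeR adjusted p 0.000972). Its ribosome-bound RNA was 420, 392 and 438 CPM in NPC and 162, 106 and 133 CPM in ESC, a 3.10-fold rise (log2 1.63 ± 0.22, edgeR adjusted p 5.49e-05). In both assays NPC and ESC were clearly apart, in opposite directions. Efficiency rose 4.84-fold (log2 2.28 ± 0.24, edgeR adjusted p 5.96e-06). This signed log2 value lay above that of 96.6% of all genes tested.

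DICER1, the cytoplasmic enzyme that cuts precursors into mature microRNAs, had the same arrangement at smaller size. Total RNA was 97.4, 94.7 and 103 CPM in NPC and 125, 119 and 171 CPM in ESC, with a log2 fold change of -0.49 ± 0.15 (edgeR adjusted p 0.0219). Ribosome-bound RNA was 63.8, 71.7 and 63.2 CPM in NPC and 34.0, 34.9 and 25.2 CPM in ESC, or 2.12-fold higher in NPC (log2 1.08 ± 0.20, edgeR adjusted p 0.000646). The groups did not overlap in either assay. Efficiency rose by 1.54 ± 0.27 on the log2 scale (edgeR adjusted p 0.000339). The total RNA value was -0.31 (adjusted p 2.93e-05) without ESC replicate 3. Its call was lost without any 1 of the NPC libraries, at log2 fold changes of -0.52 to -0.46 (edgeR adjusted p 0.0579 to 0.0876), whereas the ribosome-bound and efficiency calls held in each of the 13 and 20 alternatives run for them. DICER1-AS1, whose span shares 323 bases with that of DICER1, rose by 1.33 ± 0.18 in total RNA (edgeR adjusted p 0.000483) and by 1.82 ± 0.42 in ribosome-bound RNA (0.00256). Its counts equalled 3.30% and 7.75% of those of DICER1 in the 2 assays.

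**Figure D2:**
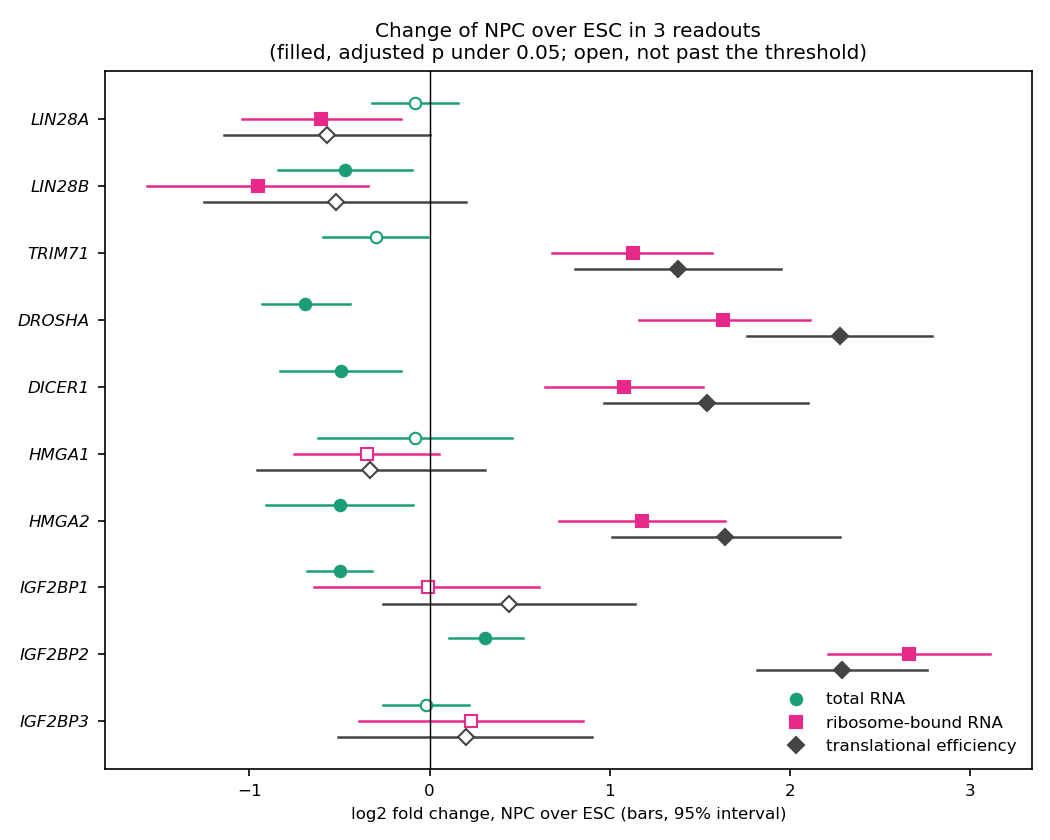
Log2 fold change of NPC over ESC for each of the 10 genes in total RNA (circles), ribosome-bound RNA (squares) and translational efficiency (diamonds), with 95% intervals and filled symbols where the edgeR adjusted p was under 0.05. DROSHA, DICER1 and HMGA2 had total RNA below 0 and ribosome-bound RNA above 0, and both LIN28 genes had all 3 values below 0.

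HMGA2, a chromatin-binding protein and the best known let-7 target, resembled DICER1. It had 164, 164 and 181 CPM of total RNA in NPC and 204, 202 and 316 CPM in ESC (log2 -0.50 ± 0.18, edgeR adjusted p 0.0430). On ribosomes it had 46.5, 47.1 and 47.8 CPM in NPC and 24.4, 21.9 and 16.3 CPM in ESC, a 2.26-fold difference (log2 1.18 ± 0.21, edgeR adjusted p 0.000504). Groups did not overlap in either assay, and the NPC ribosome-bound values spread little. Efficiency was 3.12-fold higher in NPC (log2 1.64 ± 0.30, edgeR adjusted p 0.000480). The total RNA call was lost under 6 of 13 alternatives, among them the removal of any 1 NPC library (log2 -0.55 to -0.47, edgeR adjusted p 0.0814 to 0.13). Without ESC replicate 3 it held at a smaller size (-0.26, 0.000389). RPSAP52, whose span shares 2515 bases with HMGA2, had 21 counts of total RNA over NPC and 39 over ESC (log2 -1.44 ± 0.43, edgeR adjusted p 0.0229).

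HMGA1, the related chromatin protein, did not pass in any readout. Total RNA was 1800, 1654 and 1569 CPM in NPC and 2024, 2207 and 1090 CPM in ESC. The ESC libraries lay on both sides of those of NPC, with ESC replicate 3 low, and the log2 fold change was -0.08 ± 0.23 (edgeR adjusted p 0.785). Without that library it was -0.34 (adjusted p 6.62e-06), and without ESC replicate 2 it was 0.08. Ribosome-bound HMGA1 was 139, 160 and 146 CPM in NPC and 196, 197 and 173 CPM in ESC. These groups did not overlap, but the log2 fold change of -0.35 ± 0.18 did not pass (edgeR adjusted p 0.119). It passed without ESC replicate 2 of ribosome-bound RNA (-0.33, 0.0318). Efficiency differed by -0.33 ± 0.30 (edgeR adjusted p 0.398), with a 95% interval from -0.96 to 0.31. The 8 HMGA1 pseudogene symbols held at most 16 counts in a library, so that few reads were assigned to copies, while the sources used here do not state how reads with several matches were treated.

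IGF2BP1, IGF2BP2 and IGF2BP3 are oncofetal RNA-binding proteins that stabilise and localise mRNAs. IGF2BP2 rose in each of the 3 readouts and IGF2BP1 fell in total RNA, while IGF2BP3 passed in none. IGF2BP2 had 174, 177 and 177 CPM of total RNA in NPC and 134, 149 and 141 CPM in ESC, a modest rise of 0.31 ± 0.09 on the log2 scale (edgeR adjusted p 0.0167). On ribosomes it had 238, 219 and 247 CPM in NPC and 42.2, 38.7 and 30.8 CPM in ESC. That 6.30-fold rise (log2 2.66 ± 0.21, edgeR adjusted p 1.29e-06) was the largest of the 10 genes, with the lowest NPC library far above the highest of ESC. Efficiency rose 4.90-fold (log2 2.29 ± 0.22, edgeR adjusted p 2.53e-06). The total RNA rise lost its call without ESC replicate 1 (adjusted p 0.111) or any 1 of the NPC libraries (0.0638 to 0.0740), again by edgeR.

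IGF2BP1 had 1047, 1059 and 1052 CPM of total RNA in NPC and 1477, 1423 and 1567 CPM in ESC. The NPC libraries were nearly identical and all below ESC (log2 -0.50 ± 0.08, edgeR adjusted p 0.00107). On ribosomes IGF2BP1 had 395, 486 and 423 CPM in NPC and 583, 250 and 482 CPM in ESC. ESC replicate 2 was the low library there, the groups overlapped, and the log2 fold change was -0.01 with a 95% interval from -0.64 to 0.61. IGF2BP3 had 168, 178 and 182 CPM of total RNA in NPC and 161, 177 and 197 CPM in ESC (log2 -0.02 ± 0.10, edgeR adjusted p 0.910). Its ribosome-bound RNA was 122, 123 and 120 CPM in NPC and 139, 54.6 and 117 CPM in ESC, again with ESC replicate 2 low (log2 0.23 ± 0.28, edgeR adjusted p 0.506). Leaving that library out turned the sign, to -0.09. Efficiency of IGF2BP1 and IGF2BP3 changed by 0.44 ± 0.33 and 0.20 ± 0.33, with edgeR adjusted p of 0.290 and 0.652.

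**Figure D3:**
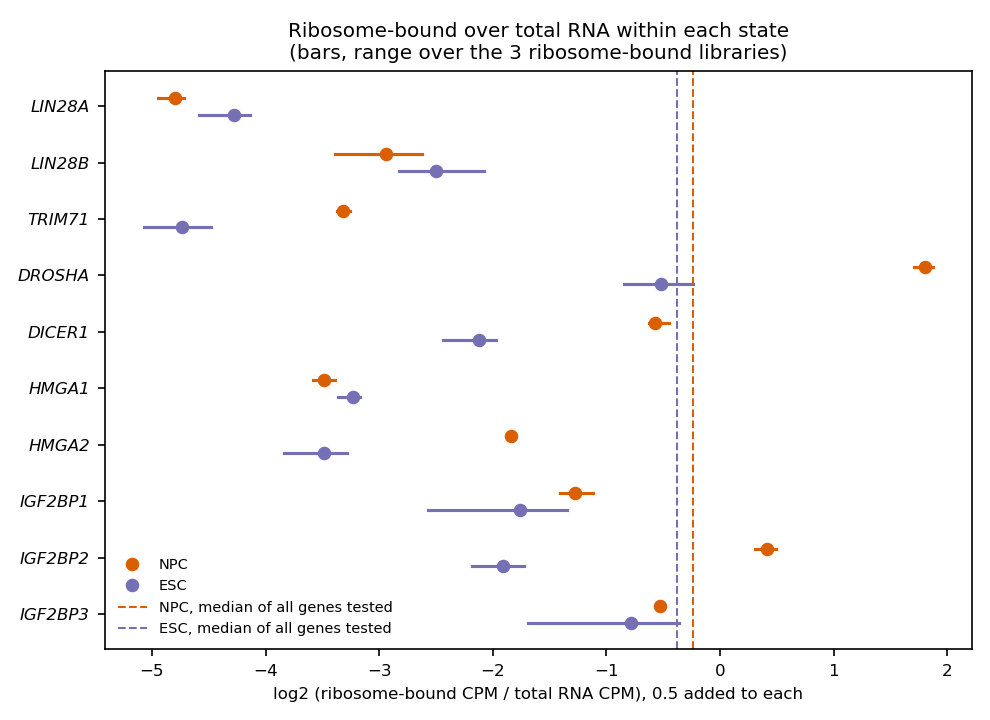
Log2 of ribosome-bound over total RNA CPM (0.5 added to each) of the 10 genes in NPC (orange) and ESC (purple), with bars for the range over the 3 ribosome-bound libraries and dashed lines for the median of all genes tested. LIN28A, HMGA1, TRIM71 and LIN28B lay far to the left of both medians in both states, and IGF2BP2 crossed from below the median in ESC to above it in NPC. DROSHA lay above the median in NPC, while in ESC its range spanned the median.

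Within a state, the log2 ratio of ribosome-bound CPM over total RNA CPM was described for each gene as a percentile among 11866 genes, with no test. It depends on which part of a transcript the ribosome-bound reads cover and on how reads with several matches were counted. The sources used here state neither. LIN28A stood near the bottom in both states, at log2 -4.80 in NPC (percentile 0.278) and -4.28 in ESC (0.632). HMGA1 stood at -3.49 in NPC (percentile 1.21) and -3.23 in ESC (2.39), and LIN28B at -2.94 in NPC (2.17) and -2.50 in ESC (6.34). The genes whose efficiency rose moved up the order by unequal amounts. TRIM71 remained among the lowest genes, at -3.32 in NPC (percentile 1.42) and -4.74 in ESC (0.337). HMGA2 was at -1.84 in NPC (percentile 9.52) and -3.49 in ESC (1.69), and DICER1 at -0.57 in NPC (38.5) and -2.12 in ESC (10). IGF2BP2 was at 0.41 in NPC (percentile 71.4) and -1.91 in ESC (12.9), and DROSHA at 1.80 in NPC (94.6) and -0.52 in ESC (45.8). IGF2BP1 and IGF2BP3 stood at percentiles 19.0 and 39.6 in NPC and 15.1 and 38.2 in ESC. All-gene medians were -0.24 in NPC and -0.38 in ESC.

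The 3 genes whose levels ran most like those of LIN28A over the 12 libraries were PEX19 (Pearson r = 0.997 of log2 CPM, among 8292 genes), EEF1A1 (0.996) and TGIF2 (0.995). For LIN28B they were NUP50 (0.997), AREL1 (0.992) and SUPT20H (0.991). These correlations describe a pattern dominated by the gap between the 2 assays, and the points share libraries and depth. EEF1A1, a translation elongation factor with many processed pseudogenes, averaged 13.2 CPM of ribosome-bound RNA in NPC and 23.0 in ESC beside 17200 CPM of total RNA in NPC and 13700 in ESC, so a very low ratio was not particular to LIN28A.

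The other processing and Argonaute genes form a list of 14, from DGCR8, the partner of DROSHA, to the TNRC6 proteins that carry out silencing. On ribosomes 8 were higher and 2 lower in NPC, beside 61.8% of all genes called (31.6% higher, 30.3% lower), with a list median of 0.80 beside -0.01 for all genes. Without ESC replicate 2 of ribosome-bound RNA 4 were lower, and over 13 alternatives 6 to 9 were higher. TNRC6B rose to 154 ± 21.2 CPM in NPC, against 31.6 ± 17.2 in ESC (SD, n = 3 each; log2 2.26, edgeR adjusted p 0.000141), and TNRC6A to 142 ± 7.98 in NPC, against 36.0 ± 12.8 in ESC (log2 1.98, 3.65e-05). ESC replicate 2 was the low library for TNRC6B (13.8 CPM), and its log2 value ran from 1.92 to 2.67 over 13 alternatives. The 2 that fell are both DICER1 partners: TARBP2 had 17.1 ± 2.85 CPM in NPC and 77.5 ± 9.62 in ESC (log2 -2.18, edgeR adjusted p 6.29e-06), and PRKRA had 17.5 ± 2.83 in NPC and 31.9 ± 3.26 in ESC (log2 -0.86, 0.00488). In total RNA 4 were higher and 3 lower (median 0.00, all genes 0.03), a share near the 52.6% of all genes. AGO4 (log2 1.01) and TNRC6B (0.72) led the rises, and AGO1 (-1.52) and AGO2 (-0.52) the falls. Efficiency was higher for 7 and lower for 2 (median 0.88, all genes -0.05), beside 22.9% of all genes higher and 19.0% lower. It was lower for 4 without ESC replicate 3 of total RNA and ESC replicate 2 of ribosome-bound RNA. AGO2, the Argonaute with slicer activity, rose 5.43-fold in efficiency (log2 2.44 ± 0.22, edgeR adjusted p 1.71e-06) and AGO1 4.50-fold (2.17 ± 0.22, 4.28e-06), while TARBP2 fell by 2.41 ± 0.39 (0.000173) and PRKRA by 1.37 ± 0.25 (0.000492). AGO1 and AGO2, like DROSHA and DICER1, were thus lower in total RNA and higher on ribosomes.

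Factors that tail, degrade or bind let-7 precursors form a list of 9. On ribosomes 5 rose and 1 fell in NPC (median 0.78, all genes -0.01), and this total is near the 61.8% of all genes called. TUT7 had 89.6 ± 2.80 CPM in NPC and 22.3 ± 10.7 in ESC (log2 1.98, edgeR adjusted p 0.000136), and TUT4 had 93.5 ± 4.28 in NPC and 39.1 ± 2.53 in ESC (log2 1.26, 0.000105). The mRNAs of both uridylyl transferases were thus more abundant in ribosome-bound RNA in NPC. ILF2, a component of an RNA-binding complex, had 322 ± 26.0 CPM in NPC and 507 ± 143 in ESC (log2 -0.66, edgeR adjusted p 0.0338), a call lost without any 1 library other than ESC replicate 2 (largest adjusted p 0.135). In total RNA TUT4 (log2 0.55) and DIS3L2 (0.35) were called higher and ILF2 (-0.36) lower, with a list median of 0.03, that of all genes, of which 52.6% were called. Without ESC replicate 1 or 2 or NPC replicate 2 or 3 none of the 9 was called higher in total RNA, without NPC replicate 1 the count was 1 and without ESC replicate 3 it was 5. The count called lower was 3 without ESC replicate 3 and 0 without NPC replicate 3. Efficiency was higher for 3 and lower for 0, beside 22.9% and 19.0% of all genes (median 0.48, all genes -0.05), led by TUT7 (1.92 ± 0.36, edgeR adjusted p 0.000633) and KHSRP, which binds the precursor and promotes its processing (1.15 ± 0.27, 0.00319). Over 20 alternatives the TUT7 efficiency ran from 1.41 to 2.26. Here 1 was called lower without ESC replicate 2 of ribosome-bound RNA.

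Another 32 genes known as let-7 targets moved in both directions. In total RNA 11 were higher and 14 lower in NPC (median -0.22, all genes 0.03), beside 26.4% of all genes higher and 26.2% lower. Without ESC replicate 1 the count called higher was 7, and without NPC replicate 2 the count called lower was 9. PRTG, an immunoglobulin-family receptor of early neural tissue, had 1590 ± 80.3 CPM in NPC and 24.7 ± 4.93 in ESC (log2 6.0, edgeR adjusted p 2.48e-07), and FIGNL2 had 70.9 ± 6.15 in NPC and 14.5 ± 3.16 in ESC (log2 2.29, 2.69e-05). CDK6, a kinase of the G1 phase, was among those that fell, with 24.1 ± 0.155 CPM in NPC and 87.8 ± 11.8 in ESC (log2 -1.86, edgeR adjusted p 1.25e-05). On ribosomes 13 were higher and 6 lower (median 0.34, all genes -0.01), in total near the 61.8% of all genes called. PRTG (log2 5.44) and the nuclear receptor NR6A1 (2.46) led the rises, and the ribonucleotide reductase subunit RRM2 (-1.76) was among the falls. NR6A1 had 306 ± 37.4 CPM on ribosomes in NPC and 55.9 ± 11 in ESC. The efficiency of 11 was higher and of 3 lower (median 0.45, all genes -0.05), in total near the 41.9% of all genes called, led by ARID3B (2.32 ± 0.30, edgeR adjusted p 2.59e-05) and NR6A1 (1.89 ± 0.25, 3.01e-05), with falls for TGFBR1 (-1.25 ± 0.43, 0.0276) and COIL (-1.06 ± 0.39, 0.0398). The TGFBR1 fall passed the threshold in 14 of 20 alternatives and the COIL fall in 10 of 20. The count of falls in efficiency ran from 1 to 7 over 20 alternatives, and that of rises from 7 to 16. There was 1 fall without ESC replicate 1, ESC replicate 2 or NPC replicate 3 of total RNA or NPC replicate 2 of ribosome-bound RNA, and there were 6 without ESC replicate 3 of total RNA. There were 7 rises without NPC replicate 2 or 3 of total RNA or NPC replicate 3 of ribosome-bound RNA.

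**Figure D4:**
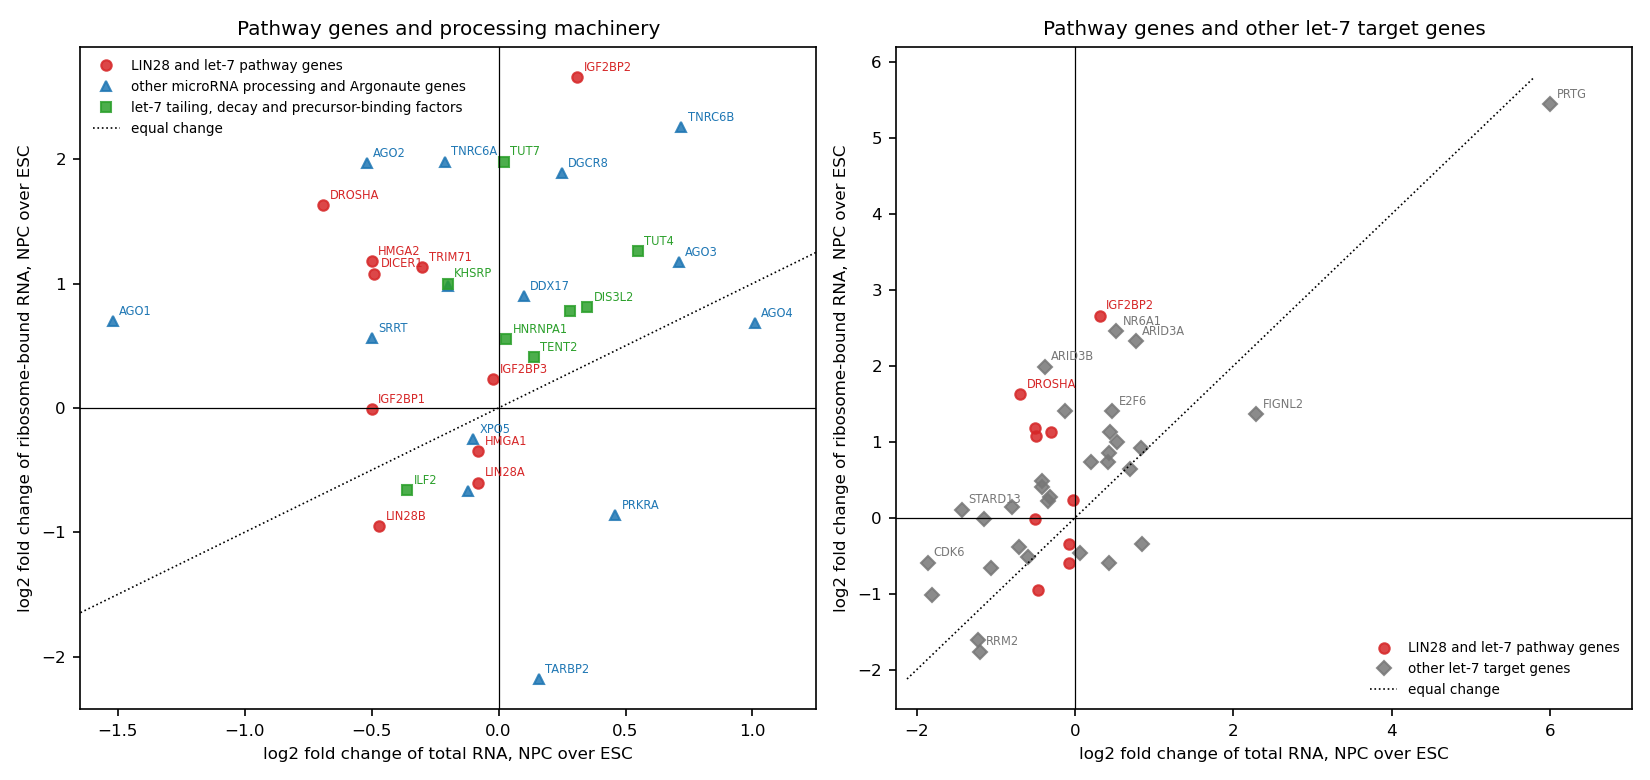
Log2 fold change of NPC over ESC in total RNA (x axis) and ribosome-bound RNA (y axis) for the 10 pathway genes with the processing, tailing and precursor-binding genes (left) and with the other let-7 targets (right), the dotted line marking equal change. DROSHA, AGO1 and AGO2 lay in the upper left, TARBP2 and PRKRA in the lower right, and PRTG far along the diagonal; a few labels are left out where points crowd, and 2 genes of these lists are not drawn.

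The table counts reads per gene, and the labels do not give the fragment length of either assay. The let-7 rows therefore show reads over hairpin genes and host transcripts, in which mature let-7 cannot be told apart from its precursors. Of the 12 hairpin genes, 6 had 0 counts in all 12 libraries, among them both hairpins in MIRLET7BHG, let-7a-3 and let-7b. MIR98 had 73 counts of total RNA over the 3 NPC libraries and 16 over the 3 ESC libraries, a ratio of 3.20 after scaling to library size (95% interval 1.85 to 5.89, exact, counting error only). Per library it was 0.563, 0.866 and 0.801 CPM in NPC and 0.255, 0.239 and 0.255 CPM in ESC. All NPC libraries lay above ESC (log2 1.57 ± 0.34, edgeR adjusted p 0.00519), while HUWE1, in which MIR98 lies, was at 1150 ± 14.4 CPM in NPC and 1530 ± 89.7 in ESC (log2 -0.41, 0.00346). MIRLET7G had 18 counts of total RNA in NPC and 18 in ESC, a ratio of 0.702 with an interval from 0.344 to 1.43, and on ribosomes 27 in NPC and 21 in ESC (1.04, 0.567 to 1.94). MIRLET7I had 26 ribosome-bound counts in NPC and 20 in ESC (1.05, 0.565 to 1.99). These intervals include 1, and at such counts a moderate difference was not detectable.

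The host transcripts went in opposite directions. MIR100HG (chr11:122028329-122422871), which holds let-7a-2, had 2.36, 2.46 and 2.76 CPM of total RNA in NPC and 0.460, 0.359 and 0.664 CPM in ESC, a 5.17-fold rise (log2 2.37 ± 0.26, edgeR adjusted p 0.000145). MIRLET7BHG (chr22:46085997-46113928), which holds let-7a-3 and let-7b, had 0.113, 0.251 and 0.208 CPM in NPC and 1.48, 2.35 and 0.817 CPM in ESC, or 7.87-fold higher in ESC (log2 -2.98 ± 0.48, edgeR adjusted p 0.00129). Both rest on few reads, 244 counts in NPC and 31 in ESC for MIR100HG, and 19 in NPC and 104 in ESC for MIRLET7BHG. The groups did not overlap for either transcript. WDR82, host of let-7g, had 184 ± 3.59 CPM in NPC and 292 ± 13.2 in ESC (log2 -0.67, edgeR adjusted p 0.000358). It was lower on ribosomes too (log2 -0.80 ± 0.20, 0.00441), whereas HUWE1 was higher there (1.04 ± 0.27, 0.00504) and in efficiency (1.40 ± 0.30, 0.00176). MIR99AHG, host of let-7c, had 24 counts of total RNA in NPC and 10 in ESC, a ratio of 1.68 with an interval from 0.776 to 3.95.

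**Figure D5:**
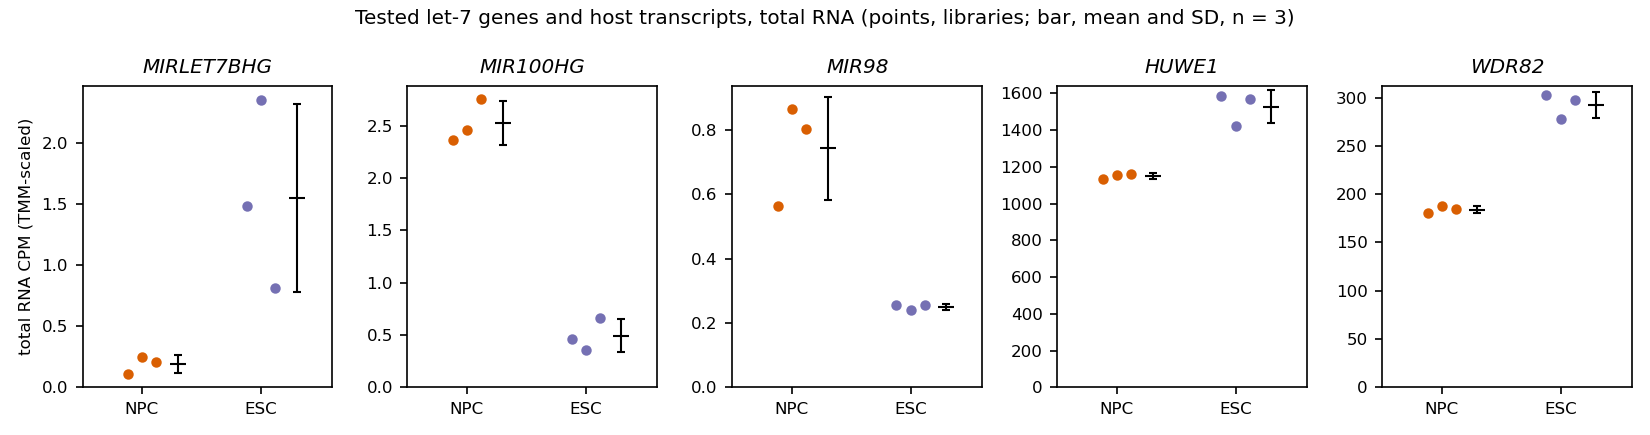
Total RNA of MIRLET7BHG, MIR100HG, MIR98, HUWE1 and WDR82 in CPM on linear axes, with NPC (orange) left of ESC (purple); points are libraries and bars the mean and SD of 3. MIR100HG and MIR98 stood higher in NPC, and MIRLET7BHG, HUWE1 and WDR82 higher in ESC, with no overlap in these libraries.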

How the data were processed

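Total RNA and ribosome-bound RNA of NPC and ESC were analysed from the raw count table that the authors deposited, with 1 column per library. Per the submitters' processing notes, featureCounts 1.6.4 and STAR 2.7.1a were used beside Bowtie 1.2 and cutadapt 1.18, with the builds GRCh38 and hg38. What each tool did, the annotation, the use of strand, the treatment of reads with several matches and the way ribosomes were isolated: not given in the sources used here.

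Fold changes were tested with edgeR 4.0.16 in R 4.3.3 (quasi-likelihood F test after filterByExpr and TMM scaling, p adjusted by Benjamini-Hochberg over all genes tested, threshold 0.05), per assay, and for translational efficiency as the interaction of assay and state over 12 libraries. Scaling was per assay for CPM and for the tests within an assay, and over all 12 libraries together for efficiency. Efficiency is relative. The standard error was the log2 fold change divided by the square root of F. Ratios within a state used CPM with 0.5 added. DESeq2 1.42.0, limma 3.58.1, other scalings and filters, a replicate block and leaving out libraries served as alternatives. Ratios of few counts have exact binomial intervals at 95%, and 0 counts in a library allow up to 3, or 0.0854 to 0.154 CPM of total RNA and 0.674 to 1.24 CPM of ribosome-bound RNA. These cover counting error only.

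All 10 pathway genes are named. From each other list the 2 genes with the largest rise and the 2 with the largest fall among those called are named per comparison, together with let-7 rows, antisense genes and pseudogenes with counts and the 3 genes most like LIN28A and LIN28B (mean of at least 10 CPM in each assay). Of the genes in these lists, 2 are counted but not reported here by name or value. Members and lists were chosen with earlier results of these data known. Simulated counts with known changes were used to check the tests. Sequences and gene spans came from RefSeq (GRCh38.p14), where all 10 symbols matched. Tables were made with pandas 2.3.3, scipy 1.17.1 and numpy 2.4.6 under Python 3.11.15, and figures with matplotlib 3.10.9.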

Additional observations from a re-analysis of the deposited data

How the results depend on the processing

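Ribosome-bound RNA and efficiency of TRIM71, DROSHA, DICER1, HMGA2 and IGF2BP2 kept their direction and their call in all 13 and all 20 alternatives, as did the total RNA falls of IGF2BP1 and DROSHA in 13. The number of all genes called stayed within 1.5 times of the main count in each comparison. Leaving out 1 library at a time gave 2 to 7 members lower and 0 to 1 higher in total RNA, 0 to 3 lower in ribosome-bound RNA and 0 to 2 lower in efficiency. With total counts as the scale 2 members were lower in total RNA, and with no filter 0 were higher. DESeq2 called 1 member lower in efficiency, and without ESC replicate 3 of total RNA and ESC replicate 2 of ribosome-bound RNA together, an alternative added after seeing the data, 2 were lower. The cause was not tested.

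Small values changed sign. In total RNA IGF2BP3 was 0.05 with total counts as the scale and 0.06 and 0.02 without ESC replicate 3 or NPC replicate 1, HMGA1 was 0.08 without ESC replicate 2 and LIN28A 0.03 without ESC replicate 3. On ribosomes IGF2BP1 was 0.08 with limma-voom, 0.06 with the replicate block, and 0.24, 0.05, 0.07 and 0.03 without ESC replicate 1, ESC replicate 3, NPC replicate 1 or NPC replicate 3, and IGF2BP3 was -0.09 without ESC replicate 2. In efficiency IGF2BP3 was -0.10 without that library and -0.21 without both libraries named above. Over the removals of 1 library the ranges were, in total RNA, -0.19 to 0.03 for LIN28A, -0.12 to 0.06 for IGF2BP3 and -0.34 to 0.08 for HMGA1, on ribosomes -0.31 to 0.24 for IGF2BP1 and -0.09 to 0.48 for IGF2BP3, and in efficiency -0.10 to 0.45 for IGF2BP3.

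In a check of shared deviations from group means, same-numbered NPC and ESC libraries correlated at 0.109, 0.0936 and 0.267 in total RNA. In ribosome-bound RNA they correlated at -0.181, -0.258 and -0.00858. Same-numbered ribosome-bound and total RNA libraries correlated at -0.0321, -0.00603 and -0.125 in NPC and at -0.118, 0.141 and 0.0898 in ESC. Differently numbered libraries were not compared, so the check cannot settle whether replicate numbers pair the samples. With the replicate number as a block, 1 member was lower in ribosome-bound RNA in place of 2, LIN28A having an edgeR adjusted p of 0.0621. Depth limits the ribosome-bound rows of LIN28B, HMGA2 and the let-7 hairpins most.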
